A study of Rattus norvegicus with 63 samples.

Results

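The liver miRNA profile of methapyrilene-treated rats comprised 6 arrays of 63 in the series, 3 from rats given the compound and 3 from the vehicle rats that the labels assign to them as controls. The arrays were selected by sample label alone, namely the MPy rats 1 to 3 and the rats 4 to 6 of methylcellulose control set 1, and all 350 non-control miRNAs on these arrays were considered. All rats were male Wistar Hanover rats of 8 to 10 weeks that were dosed by gastric gavage, and RNA came from whole liver of 1 rat per array. MPy rats received Methapyrilene HCl at 60 mg/kg per day for 7 days. Their controls (MC set 1) received the vehicle methylcellulose and are labelled with 14 days, so the labelled durations differ, although the methods describe the controls as matched in time. From each treated group of 5 rats, 3 with histopathological changes of the liver were profiled, so the group is a selection of animals with visible liver changes. Comparison groups were thioacetamide (TAA, 19.2 mg/kg per day, 7 days, same control set), dimethylnitrosamine (DMN, 4 mg/kg per day, 7 days) and C.I. Direct Black (CIDB, 146 mg/kg per day, 7 days). The rats of DMN and CIDB had corn oil control set 3 (CO set 3, 7 days) as reference. The series as a whole holds 21 groups of 3 rats.

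Values are log2 normalized intensities of a miRNA, and a difference of 1 is a doubling of the intensity. No background was subtracted, so the intensity holds a floor near 7.4 and fold changes of dim miRNAs are compressed. Among the 30 miRNAs called below, the median ratio of the log2 fold change after normexp background correction to the one reported here was 1.52. It was 1.92 with background-subtracted processed signals scaled by the miRNAs detected on all arrays, and 2.8 with scaling by all probes. In the value table it was 1.83 over 28 of them. Of the 350 miRNAs, 162 were detected on at least 1 of the 63 arrays and were tested, and 94 were detected on all 6 arrays. Between 117 and 136 miRNAs were detected per MPy array and between 96 and 141 per MC set 1 array. The number of arrays limits the precision, and all 3 MPy arrays lay on slide 5 and were scanned on day 2, whereas MC set 1 rat 4 lay on slide 9 (day 3) and rats 5 and 6 on slide 8 (day 2). By the scanner files as filed, no slide held both groups. Median spot brightness was 151 to 151.5 units in the MPy arrays, 148.5 and 152 in rats 5 and 6 of MC set 1, and 78 in rat 4. The extraction software rated all MPy, MC set 1 and TAA arrays ExtractionInRange. It rated all CO set 3 and DMN arrays and those of CIDB rats 1 and 3 ExtractionEvaluate. Between 81 and 96 miRNAs were detected per CO set 3 array. Replicates are separate rats by label.

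In the deposited value table, the columns of the 3 MPy rats followed their own scanner arrays (r = 0.873 to 0.894 across 71 miRNAs detected on all arrays, which are not independent replicates). The columns of MC set 1 rats did not, with r = 0.234 to 0.564 to their own arrays and r = 0.864 to 0.885 to the arrays filed as MC set 5. Which of these assignments holds could not be settled from the files. Results below use the scanner files as filed, and changes of calls under the assignment of the value table are given by miRNA or by list.

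MicroRNAs are short RNAs that guide Argonaute proteins to messenger RNAs by pairing of the seed, bases 2 to 8 from the 5′ end, and thereby reduce translation and stability of the target. In liver, miR-122 is the predominant hepatocyte miRNA, and miR-192 and miR-194 are also abundant there. miR-34a is a transcriptional target of p53 and represses cell cycle genes. Methapyrilene is an antihistamine that was withdrawn after it caused liver tumours in rats. miRNAs with the same seed can share targets, so the mature sequences of the families with the largest changes are shown first, with the seed in capitals. Of 57 names looked up, 52 matched a mature sequence in RefSeq (build GRCr8), and miR-99a, miR-30b-5p, miR-30d, miR-30e* and miR-148b-5p did not.

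The miR-34 family is shown because 1 member carries the largest rise. The locus of miR-34a is chr5:165815971-165815992 on the + strand, inside the span of the long noncoding RNA gene LOC103692514, while miR-34b and miR-34c lie together in a cluster of 602 bases on chromosome 8.
miR-34a: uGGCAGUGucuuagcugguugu
miR-34b: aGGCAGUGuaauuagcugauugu
miR-34c: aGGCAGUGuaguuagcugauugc

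The miR-15/16 seed group is shown because its members moved in opposite directions. miR-15b (chr2:155555197-155555218, + strand) and miR-16 (chr2:155555343-155555364, + strand) lie within the span of the protein-coding gene Smc4, which encodes a condensin subunit. miR-195 (chr10:55450509-55450529, + strand) and miR-497 (chr10:55450172-55450193, + strand) form another cluster of 411 bases. miR-16 and miR-195 were identical at 19 of 21 positions when aligned from the 5′ end without gaps, miR-15b and miR-16 at 14 of 22.
miR-15b: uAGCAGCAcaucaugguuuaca
miR-16: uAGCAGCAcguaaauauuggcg
miR-195: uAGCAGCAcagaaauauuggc
miR-497: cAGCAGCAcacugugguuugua

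The let-7 members are shown because 4 of them were called higher and because their mature sequences differ at few positions. let-7a (chr17:16320145-16320166), let-7f (chr17:16320508-16320529) and let-7d (chr17:16322273-16322294) lie on the + strand in a cluster of 2225 bases inside the long noncoding RNA gene LOC120097935, and further copies lie on chromosome 8 (let-7a) and chromosome X (let-7f). let-7a and let-7f were identical at 21 of 22 positions and let-7f and let-7d at 19 of 22. How much signal such near-identical members share on the array was not tested.
let-7a: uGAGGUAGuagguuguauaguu
let-7f: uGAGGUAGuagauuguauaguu
let-7d: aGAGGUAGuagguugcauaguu
let-7i: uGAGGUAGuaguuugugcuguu

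The cluster of miR-106b, miR-93 and miR-25 is shown because all of its tested members were called higher. It spans 483 bases on the − strand of chromosome 12 (chr12:22156641-22157123) within the span of Mcm7, a subunit of the replicative helicase. miR-106b and miR-93 share a seed that miR-25 lacks.
miR-106b: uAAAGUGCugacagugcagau
miR-93: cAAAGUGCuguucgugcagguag
miR-25: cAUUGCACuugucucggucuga

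Finally, miR-125b-5p and 3 hepatocyte miRNAs are shown as examples of falls. miR-125b-5p (chr11:29732588-29732609, + strand) lies within the span of the long noncoding RNA gene LOC103693508, which also holds the hairpins of miR-99a and let-7c. miR-193 (chr10:65170370-65170391, + strand) lies within the span of Faul2. One copy of miR-194 (chr1:212994038-212994059, + strand) lies in a cluster of 295 bases with miR-192, and the other lies next to miR-215 on chromosome 13. miR-101a lies at chr5:121081691-121081711 on the − strand.
miR-125b-5p: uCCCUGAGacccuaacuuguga
miR-193: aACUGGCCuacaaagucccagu
miR-194: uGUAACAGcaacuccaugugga
miR-101a: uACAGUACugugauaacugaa

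To find the miRNAs that were deregulated by methapyrilene, the MPy rats were compared with MC set 1. Of the 162 tested miRNAs, 13 were called higher and 17 lower (limma, Benjamini-Hochberg adjusted p under 0.05), which is 18.5% of those tested, 8.02% higher and 10.5% lower. At an unadjusted p under 0.05 there were 56. The rats of both groups did not overlap for 60 miRNAs or 37% of those tested, 31 with all MPy rats above and 29 with all MPy rats below the controls. On this scale, which keeps the background, the changes were small. Only miR-34a exceeded 1.5-fold, 5 of the called rises and 6 of the called falls exceeded 1.2-fold, and 6 rises and 10 falls were under 1.1-fold. The median log2 fold change over all tested miRNAs was 0.007. With processed signals scaled by the miRNAs detected on all arrays, miR-15b was at 1.18 and miR-99a at −0.67, beside a median of 0.304. All 30 called miRNAs had at least 2 probes, and every probe of each of them differed in the called direction. Of the 30, 22 were well above background on all 6 arrays and 3 (miR-18a, miR-148b-5p and miR-487b) on none, so the differences of these 3 lie close to background. Of these 3, miR-18a was detected on all 3 MPy arrays, and miR-148b-5p and miR-487b on none of them.

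With slide fitted as a fixed block, the calls fell to 1 higher and 1 lower, miR-34a (log2 fold change 1.04, adjusted p = 0.0252) and miR-101a (−0.38, adjusted p = 0.0252). Slide 8 held, besides MC set 1 rats 5 and 6, only nifedipine rats, which lay on no other slide. In that fit the comparison therefore rests on MC set 1 rat 4 alone, on slide 9. Slides 5 and 9 were linked only by methyl carbamate, with rats 1 and 3 on slide 5 and rat 2 on slide 9. The part of slide in the lost calls was not tested. When the arrays were assigned as in the value table, 11 were called higher and 9 lower, and 17 of the 30 were called again in the same direction. The 13 that missed the threshold were miR-16 (0.23), let-7a (0.18) and miR-93 (0.05) among the rises, and miR-30c, miR-30e, miR-30e*, miR-210, miR-33, miR-140, miR-338, miR-99a*, miR-487b and miR-148b-5p among the falls. Under that assignment miR-497 was newly called lower. The hepatocyte list described below had 4 members called lower, against 3 as filed, and the miR-29 family 1 called higher, against 0.

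**Figure D1:**
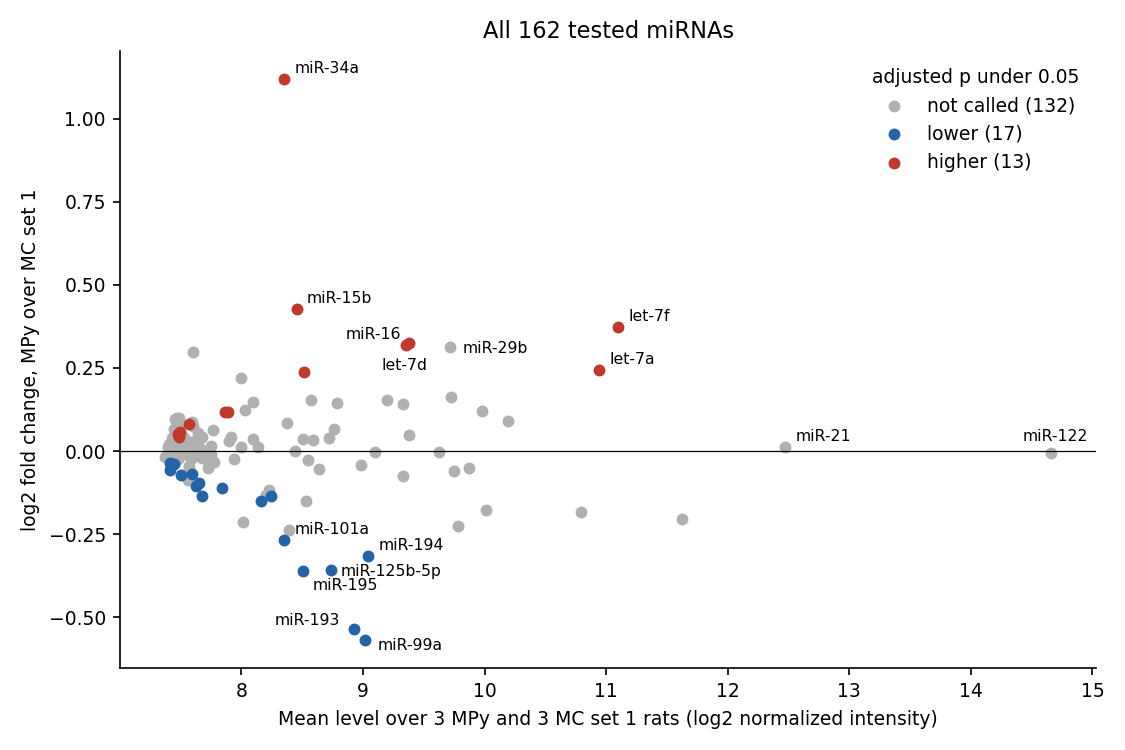
Log2 fold change of MPy over MC set 1 (vertical axis) against the mean level over the 6 rats (horizontal axis, log2 normalized intensity) for the 162 tested miRNAs, with the 13 called higher in red, the 17 called lower in blue and the other 132 in grey. miR-34a stands alone at 1.12, and the other called miRNAs lie closer to the line at 0, from the intensity floor on the left up to let-7f and let-7a near 11.

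The plot of change against level shows a single large rise, that of miR-34a. Its level was 8.86, 8.80 and 9.07 in MPy rats 1 to 3 and 7.80, 7.70 and 7.87 in MC set 1 rats 4 to 6. All treated rats thus lay above all control rats, and the gap was several times wider than the spread within either group. miR-34a was 2.17-fold higher (log2 fold change 1.12 ± 0.121 (SE), 95% interval 0.88 to 1.36, n = 3 rats per group, adjusted p = 1.304e-09). Its probes, with 10 spots each, gave differences of 0.91 and 1.33. The lowest MPy rat lay above the highest of all 12 methylcellulose control rats of the series (7.88). miR-34a was called higher in all 22 settings tried for this comparison, with log2 fold changes from 1.03 to 2.90, the largest of them with background-subtracted signals. The other p53-responsive family members, miR-34b and miR-34c, were well above background on none of the 6 arrays, with log2 fold changes of −0.00 and −0.01, so no change could be measured for them.

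**Figure D2:**
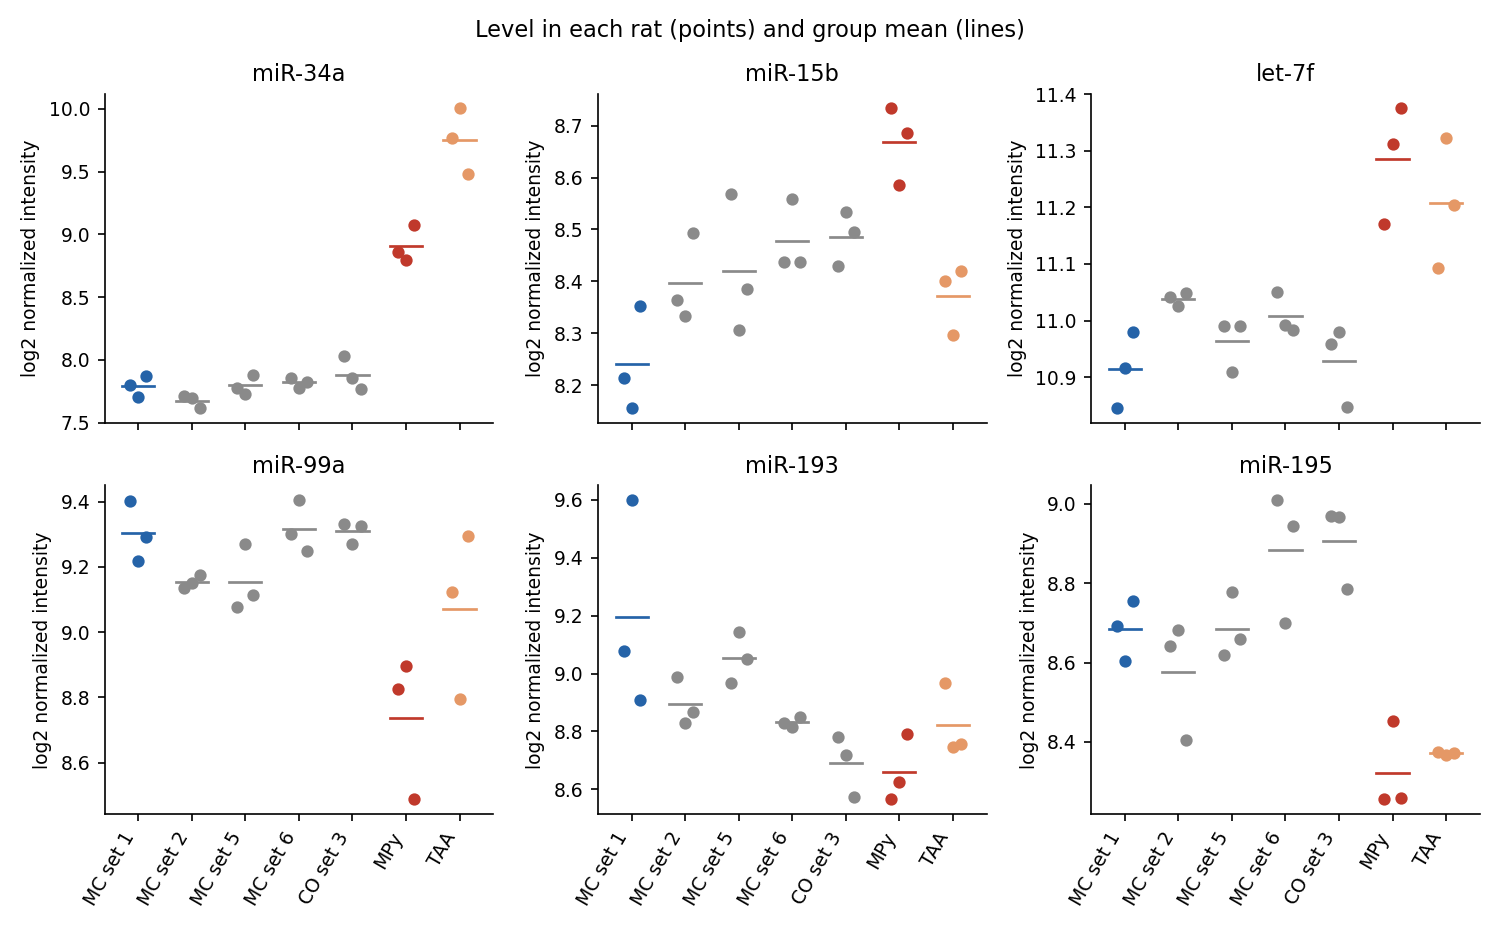
Level of 6 miRNAs (vertical axes, log2 normalized intensity) in each rat (points) and as group mean (lines) for the 4 methylcellulose control sets, the corn oil control set 3, MPy and TAA, with 3 rats per group. miR-34a, let-7f, miR-99a and, by a narrow margin, miR-15b of the MPy rats lie outside all control sets. miR-193 of the MPy rats overlaps CO set 3 and miR-195 overlaps MC set 2. Among the control sets miR-15b is lowest in MC set 1.

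Members of the miR-15/16 seed group, which includes repressors of the anti-apoptotic gene Bcl2 and of cyclins, changed in both directions. The median log2 fold change of the family list was −0.02. Of its 6 tested members, 2 were called higher and 1 lower, beside 8.02% and 10.5% of all tested miRNAs. miR-15b was 8.73, 8.59 and 8.69 in MPy rats and 8.21, 8.16 and 8.35 in controls, a 1.34-fold rise (0.43 ± 0.0681 (SE), adjusted p = 8.022e-06). The groups did not overlap, and the MPy rats lay above all 12 methylcellulose rats. miR-16, its neighbour in the cluster, was 9.59, 9.41 and 9.62 against 9.19, 9.05 and 9.40 (1.25-fold higher, 0.32 ± 0.099 (SE), adjusted p = 0.0121). Its lowest MPy rat was only just above its highest control rat, and other methylcellulose rats reached 9.76.

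miR-195, a near-identical relative of miR-16 that is produced from a separate locus, was 8.26, 8.45 and 8.26 in MPy rats and 8.69, 8.61 and 8.76 in controls. It was 1.28-fold lower (−0.36 ± 0.105 (SE), adjusted p = 0.00894), without overlap between the groups. Its neighbour miR-497 was also below all 3 controls in each MPy rat but missed the threshold (−0.24 ± 0.0901 (SE), 95% interval −0.42 to −0.06, adjusted p = 0.0573). It was called lower when arrays were assigned as in the value table (−0.35, adjusted p = 0.00863). miR-322, another member with this seed, differed by −0.03. Against CO set 3 in place of MC set 1, miR-195 (−0.58) and miR-497 (−0.40) were called lower, miR-15b was at 0.18 without a call, and miR-16 turned to −0.09, also without a call.

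The let-7 family is known for repression of Ras and other growth genes. Of 9 tested members, 4 were called higher and 0 lower, beside 8.02% and 10.5% of all tested miRNAs. The median log2 fold change of the family was 0.16 against 0.007 over all tested miRNAs, although the median turned to −0.14 under one scaling given below. let-7f, one of the brightest miRNAs of the liver, was 11.17, 11.31 and 11.38 in MPy rats and 10.85, 10.92 and 10.98 in controls (1.29-fold higher, 0.37 ± 0.0686 (SE), adjusted p = 7.92e-05). let-7d was 9.51, 9.46 and 9.59 against 9.15, 9.29 and 9.16 (1.25-fold, 0.32 ± 0.0642 (SE), adjusted p = 0.00026). The MPy rats lay above all 12 methylcellulose rats for both of these. let-7a (0.24, adjusted p = 0.00859) and let-7i (0.24, adjusted p = 0.000944) were called too. let-7b (0.16, adjusted p = 0.0787) and let-7c (0.12, adjusted p = 0.148) had all MPy rats above all MC set 1 rats without a call, and let-7e and miR-98 differed by −0.03 and −0.01.

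The direction of the let-7 family depended on the scaling, since with processed signals scaled by the 75th percentile of all probes only 3 of its 9 members were positive (median −0.14), let-7f was at −0.13, let-7a at −0.27 and none was called. That scaling moved the median of all miRNAs to −0.052, and the 75th percentile of the miRNAs detected on all arrays moved it to 0.304, with 70 called higher and 7 lower. From the latter scale to the former, let-7a went from 0.252 to −0.27, let-7f from 0.394 to −0.128 and let-7d from 0.607 to 0.085. Outside the family, miR-21 went from −0.058 to −0.579 and miR-122 from −0.109 to −0.63. The downward step was nearly the same in all of these, so it was not particular to let-7. The median hides this step in part, since dim miRNAs such as miR-487b stayed at 0 on both scales. On that second scale the let-7 median was 0.07 above the median of all miRNAs.

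**Figure D3:**
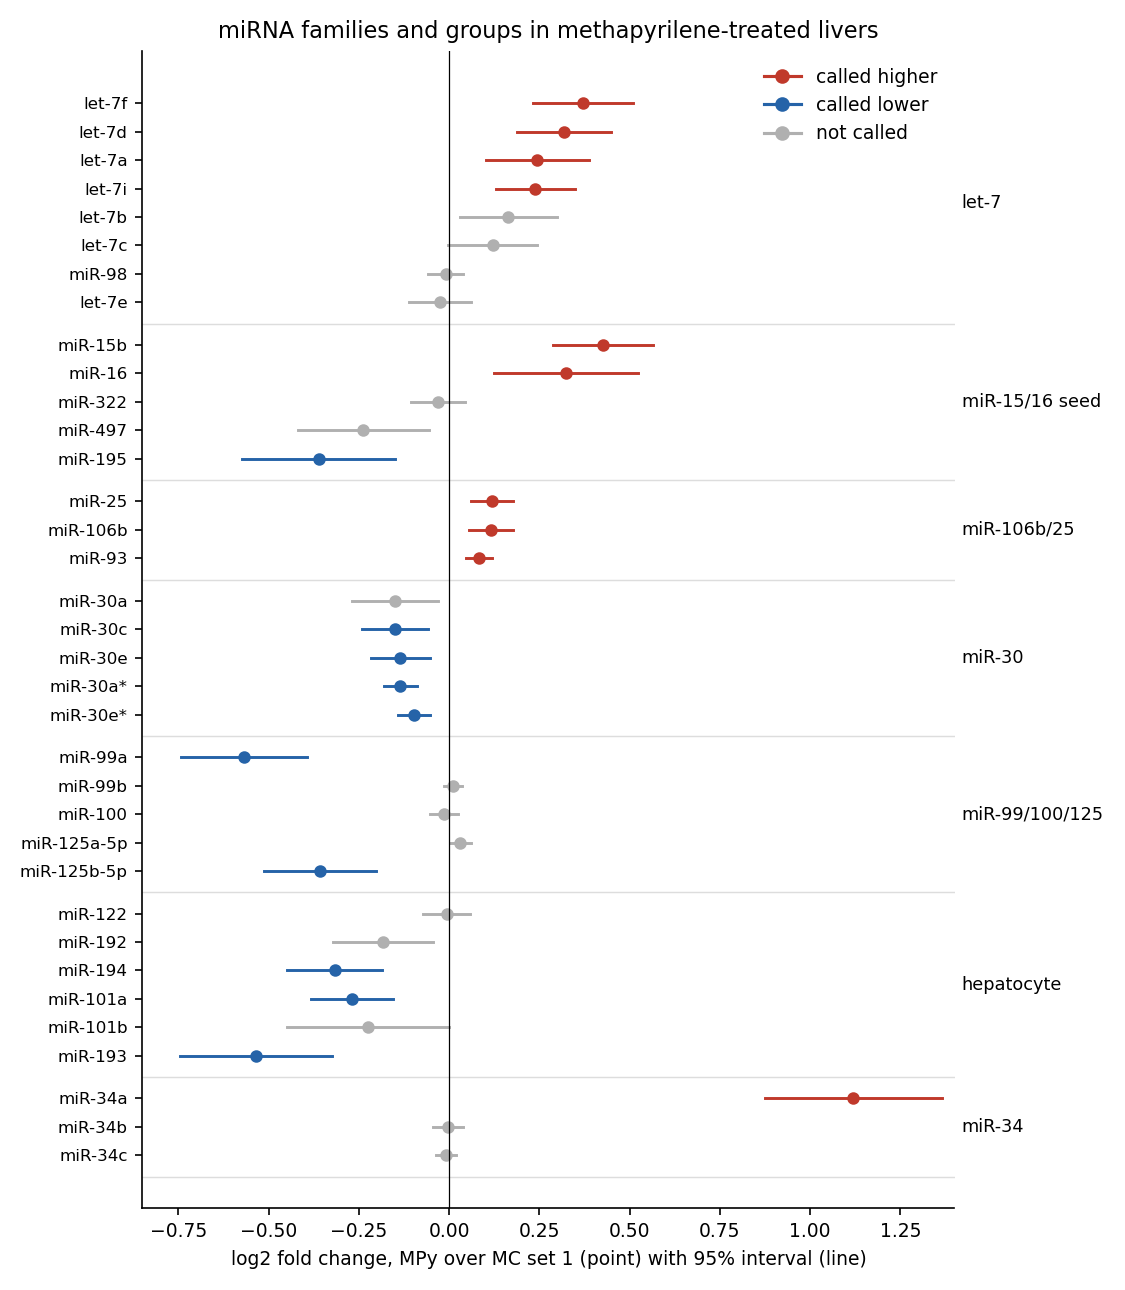
Log2 fold change of MPy over MC set 1 (points) with 95% intervals (lines) for members of 7 families or groups, coloured red where called higher, blue where called lower and grey where not called. let-7f, let-7d, let-7a, let-7i, miR-15b and miR-16 lie to the right of 0 (let-7f and let-7a turn to −0.13 and −0.27 with processed signals scaled by all probes), while miR-195, miR-99a, miR-125b-5p and miR-193 lie to the left.

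The plot by family shows the opposite signs within the miR-15/16 seed group and the narrow intervals of dim members. In the cluster of miR-106b, miR-93 and miR-25, all 3 tested members were called higher, and the groups overlapped for none of them. Over all tested miRNAs, 8.02% were called higher and 37% had groups without overlap. The rises were small on the scale used here, with 0.12 for miR-106b (adjusted p = 0.00365), 0.08 for miR-93 (adjusted p = 0.00055) and 0.12 for miR-25 (adjusted p = 0.00204). miR-93 was 7.60, 7.61 and 7.63 in MPy rats and 7.56, 7.49 and 7.54 in controls, close to the intensity floor, and was well above background on 3 and 2 arrays. With normexp background correction the median of the 3 rose from 0.12 to 0.21, and against CO set 3 it was 0.03 with no member called. With processed signals it was 0.85 when scaled by the miRNAs detected on all arrays (all 3 called, median of all miRNAs 0.304). It was 0.37 with scaling by all probes (1 called) and 0.42 in the value table (all 3 called). In the related miR-17 to miR-92 cluster, which drives proliferation, 1 of 7 tested members was called higher, miR-18a at 0.04 and close to background. miR-19a (0.12, adjusted p = 0.0941) and miR-19b (0.05) were not called, and neither was miR-92a (0.04). With processed signals scaled by the miRNAs detected on all arrays, 4 of the 7 were called higher, among them miR-19a (0.78). With scaling by all probes 1 of the 7 was called higher.

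The largest fall was that of miR-99a, a member of the miR-99/100 family that represses Mtor. Its level was 8.83, 8.90 and 8.49 in MPy rats and 9.40, 9.22 and 9.29 in controls, 1.48-fold lower (−0.57 ± 0.0865 (SE), 95% interval −0.74 to −0.39, adjusted p = 4.326e-06). All MPy rats lay below all 12 methylcellulose rats, of which the lowest was 9.08, and against CO set 3 the difference was −0.57 (adjusted p = 3.529e-06). With slide as a fixed block it was −0.64 (adjusted p = 0.0746). miR-125b-5p, whose matched locus lies in the same gene span, was 8.67, 8.67 and 8.33 against 8.996, 8.79 and 8.96 (1.28-fold lower, −0.36 ± 0.077 (SE), adjusted p = 0.000533). Whether its signal came from that locus was not tested. In both miRNAs MPy rat 3 was the lowest. The third hairpin of that span, let-7c, was at 0.12 without a call, but its mature sequence is also made from chromosome 7.

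Over the miR-99, miR-100 and miR-125 families the median was −0.02. Of 7 tested members, 3 were called lower, beside 10.5% of all tested miRNAs, and none higher. The third was miR-99a*, the passenger strand of miR-99a, at −0.04 and detected on 1 of the 6 arrays. The relatives from other loci were close to 0, with −0.02 for miR-100, 0.01 for miR-99b and 0.03 for miR-125a-5p, none of them called. Against CO set 3, miR-125b-5p was at −0.07 (adjusted p = 0.54).

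Among miRNAs that are abundant or enriched in hepatocytes, 3 of 8 tested were called lower, beside 10.5% of all tested miRNAs, and none higher. The median of the 8 was −0.20 against 0.007 over all tested miRNAs. miR-193 was 8.57, 8.63 and 8.79 in MPy rats and 9.08, 9.60 and 8.91 in controls (1.45-fold lower, −0.54 ± 0.105 (SE), adjusted p = 0.000183). The groups did not overlap, and MC set 1 rat 5 stood well above the other controls. miR-194 was 8.85, 8.92 and 8.88 against 9.16, 9.30 and 9.15 (1.25-fold lower, −0.32 ± 0.0653 (SE), adjusted p = 0.000326). miR-101a, which represses the histone methyltransferase Ezh2, was 8.17, 8.26 and 8.23 against 8.55, 8.43 and 8.48 (1.205-fold lower, −0.27 ± 0.056 (SE), adjusted p = 0.000348). These 3 lay below all 12 methylcellulose rats in each MPy rat.

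miR-192, transcribed next to miR-194, was at −0.18 with all MPy rats below all controls and an adjusted p of 0.0573. miR-101b was at −0.23 (adjusted p = 0.143) and miR-365, transcribed near miR-193, at 0.03. miR-122, at 14.7 the brightest of these, differed by −0.01 (95% interval −0.07 to 0.06, adjusted p = 0.897) after quantile normalization, with a span of only 14.657 to 14.684 in the 12 methylcellulose rats. miR-122 was called lower under other processing, at −0.35 in the value table (adjusted p = 0.0212) and at −0.63 with processed signals scaled by all probes (adjusted p = 0.00262), and was at −0.11 without a call with scaling by the miRNAs detected on all arrays. The falls depended on the control rats: against CO set 3, miR-193 was at −0.03 (adjusted p = 0.871) and miR-194 at −0.00, whereas miR-101a stayed called at −0.18 (adjusted p = 0.0224). The mean of miR-193 was 9.20 in MC set 1 and 8.69 in CO set 3, so the control sets themselves lay apart. The summed intensity of the hepatocyte list, of which miR-122 is the brightest member, was 30280 to 30350 units in MPy rats and 30960 to 31430 in MC set 1.

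The miR-30 family is broadly expressed in epithelia. Of its 9 tested members, 4 were called lower, beside 10.5% of all tested miRNAs, and none higher. All 9 had a negative log2 fold change, with a median of −0.12, whereas 92 of all 162 tested miRNAs were above 0. miR-30a* was 7.64, 7.61 and 7.58 against 7.75, 7.83 and 7.66 (−0.14 ± 0.0227 (SE), adjusted p = 1.647e-05) and lay below all 12 methylcellulose rats. miR-30c (−0.15), miR-30e (−0.13) and miR-30e* (−0.10) were also called, and miR-30a (−0.15, adjusted p = 0.0721), miR-30d (−0.12) and miR-30b-5p (−0.05) were not. With processed signals scaled by the miRNAs detected on all arrays, 3 of the 9 turned positive. Assigned as in the value table, 1 of the 9 stayed called. Against CO set 3, 1 was called higher and 1 lower, and miR-30c turned to 0.05.

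The other called miRNAs changed by less than 1.1-fold on the scale used here. With processed signals scaled by the miRNAs detected on all arrays, miR-128 was at 1.11, miR-425 at 1.05, miR-33 at −0.64 and miR-210 at −0.32. On that scale miR-338 was at −0.11 and miR-140 at 0.02. miR-33, which lies within Srebf2 and represses cholesterol transporters, fell by 0.07 on the log2 scale, miR-210, which responds to hypoxia, fell by 0.11, and miR-140 and miR-338 fell by 0.11 and 0.07. miR-140 was the only called miRNA whose groups overlapped. Rises of 0.06 for miR-425 and 0.05 for miR-128 were called, with miR-425 well above background on 2 MPy arrays and 1 control array. miR-139-3p showed the reverse case: it was well above background on all 3 MPy arrays (7.97, 7.73 and 7.55) and on none of the control arrays (7.46, 7.44 and 7.46). With control values raised to the dimmest level well above background, its MPy mean was 1.19-fold higher, a bound that leaves out the spread between rats. That spread was wide within MPy, and miR-139-3p was not called (0.30 ± 0.121 (SE), adjusted p = 0.0771).

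Markers of other liver cells were examined because whole tissue was profiled, in which fewer cells of a type and less RNA per cell cannot be told apart. Of 8 tested leukocyte miRNAs, 1 was called higher and none lower, beside 8.02% and 10.5% of all tested miRNAs. That member was miR-15b, which is expressed far beyond leukocytes. The defining members miR-142-3p (0.14, adjusted p = 0.423) and miR-223 (0.03, adjusted p = 0.683) were not called, and neither was miR-146a (0.15, adjusted p = 0.178). With processed signals scaled by the miRNAs detected on all arrays, 7 of the 8 were called higher, with a list median 0.355 above that of all miRNAs, among them miR-146a (0.83, adjusted p = 0.000359) and miR-223 (0.52, adjusted p = 0.0357). All 8 were above 0 as reported. Against CO set 3, miR-142-3p was called higher (0.50, adjusted p = 0.00169) and miR-146a was at −0.07. The summed intensity of the leukocyte list, which includes miR-15b, was 2262 to 2379 units in MPy rats and 2103 to 2152 in controls. Of 9 tested miRNAs of stellate cells and smooth muscle, 2 were called lower, miR-99a and miR-125b-5p, beside 10.5% of all tested miRNAs. The sum over the list of these cells, which includes both of these called members, was 2439 to 2725 against 2835 to 2958. Their defining members miR-143 (0.07) and miR-199a-3p (0.04) were not called, miR-214 was at 0.02, and miR-145 was not detected on any array. With processed signals scaled by the miRNAs detected on all arrays, 6 of the 9 were called higher and 1 lower, including miR-143 (0.25) and miR-199a-3p (0.53) among the rises, with a list median of 0.289 against 0.304 over all miRNAs. The part of changed cell numbers in these falls was not tested.

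None of the 3 endothelial, 9 biliary and epithelial, 2 erythroid or 5 tested miR-29 family members was called on the scale used here. With processed signals scaled by the miRNAs detected on all arrays, 3 endothelial, 4 biliary and epithelial and 1 miR-29 member were called higher, beside 70 of all 162. With scaling by all probes none was called higher, and 1 biliary and epithelial and 1 miR-29 member were called lower. miR-126 of endothelium was at 0.14 (adjusted p = 0.0835) and miR-200b of bile duct epithelium at 0.06 (95% interval −0.12 to 0.25). miR-451 of red blood cells was at −0.00 with a wide interval of −0.70 to 0.70, and miR-144 at −0.21 (−0.52 to 0.10). miR-29b, which represses collagens, was at 0.31 with overlapping groups (95% interval 0.05 to 0.58, adjusted p = 0.0835). It was called higher in 8 of the 22 settings tried. With arrays assigned as in the value table, 1 miR-29 family member was called higher. miR-21, which rises in many liver injuries, was 12.5 in both group means and differed by 0.01 (95% interval −0.16 to 0.18). It was at −0.58 with processed signals scaled by all probes (adjusted p = 0.0558) and at −0.16 in the value table. With scaling by the miRNAs detected on all arrays it was at −0.06.

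No member was called among 5 tested of the miR-23, miR-27 and miR-24 clusters, 2 of miR-103 and miR-107, 1 of the miR-181 family and 1 marker of other tissues, miR-375, which was not well above background on any of the 6 arrays. Of 6 tested growth and injury miRNAs, miR-210 alone was called, lower. miR-221 was at 0.02, miR-31 at 0.04 and miR-212 at 0.03. With processed signals scaled by the miRNAs detected on all arrays, miR-221 (0.84) and miR-31 (0.51) were called higher. So were miR-103, miR-107, the miR-181 member and 1 member of the miR-23, miR-27 and miR-24 clusters. With scaling by all probes none of these lists had a member called higher. Of 3 tested miRNAs of the imprinted Dlk1-Dio3 region, miR-487b was called lower at −0.06, close to background and undetected on the MPy arrays.

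Other control rats were then put in place of MC set 1. With the 8 methylcellulose rats scanned on the same day as the MPy arrays, 15 were called higher and 16 lower, and 24 of the 30 were called again in the same direction. With CO set 3, whose labelled duration of 7 days matches MPy but whose vehicle, slide, scan day and array rating differ, 16 were called higher and 14 lower. In that case 26 of the 30 kept their direction, but only 12 were called again in that direction. These were miR-34a, let-7f, let-7a, miR-425 and miR-18a among the rises and miR-99a, miR-195, miR-101a, miR-30a*, miR-210, miR-99a* and miR-148b-5p among the falls. The parts of vehicle, duration, slide, scan day and array rating in this exchange were not tested.

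**Figure D4:**
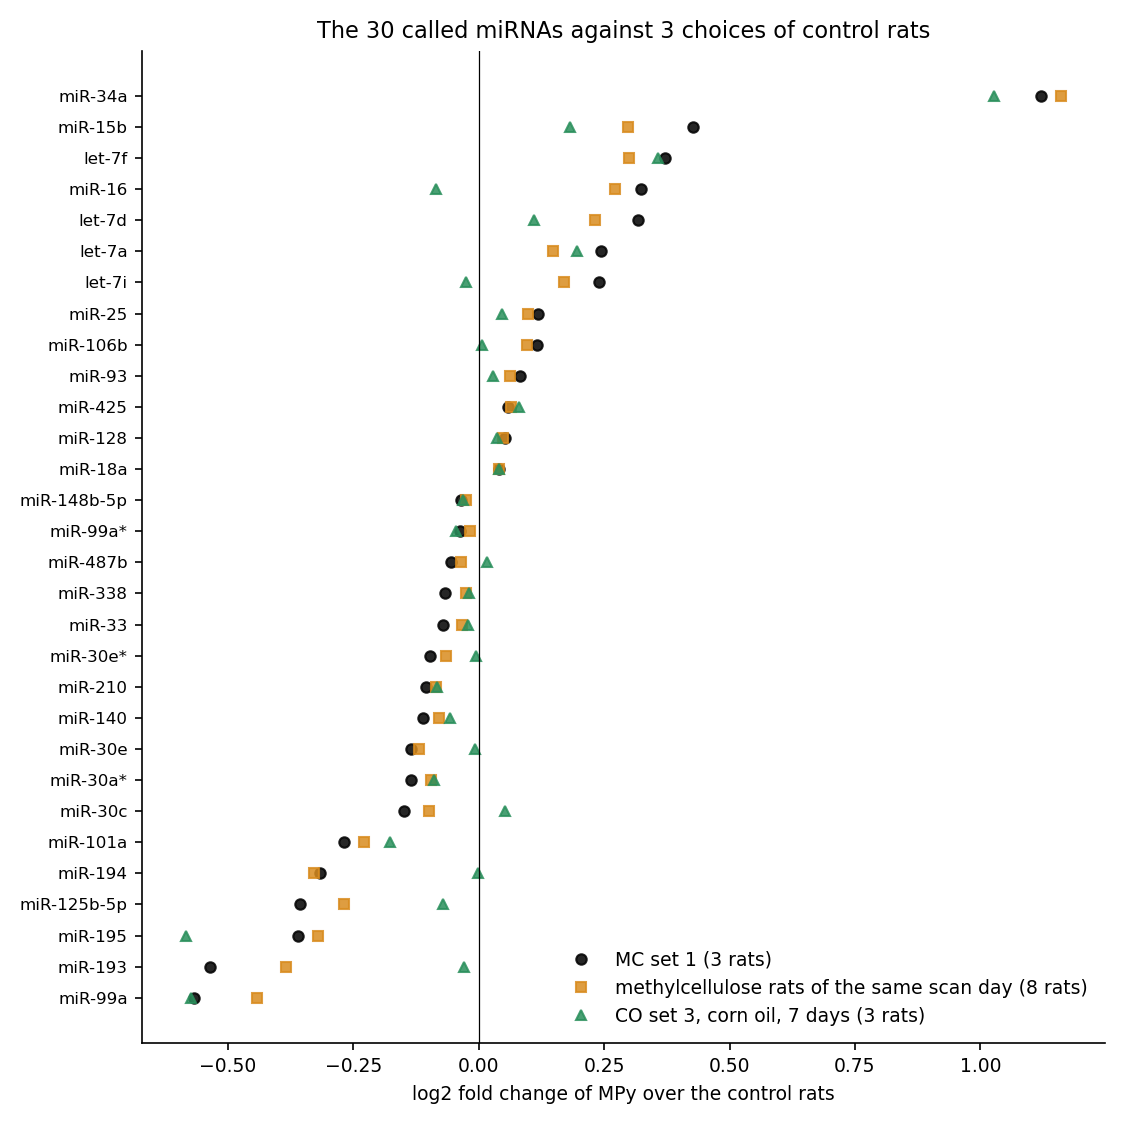
Log2 fold change of MPy for the 30 called miRNAs against MC set 1 (circles), the 8 methylcellulose rats of the same scan day (squares) and CO set 3 (triangles). miR-34a, let-7f, miR-99a and miR-195 keep their distance from 0 under all 3 choices (let-7f turns to −0.13 with processed signals scaled by all probes), while miR-16, let-7i, miR-193 and miR-194 move to about 0 against CO set 3.

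By the scanner files as filed, a single methylcellulose rat, MC set 5 rat 7, shared slide 5 with the MPy arrays. This allows a comparison within the slide without a test. In the value table the column of MC set 1 rat 4 follows this array (r = 0.874), so under that assignment it is a control of MPy. The mean of the MPy rats exceeded that rat by 1.13 for miR-34a, 0.30 for let-7f, 0.22 for miR-16 and 0.10 for miR-15b. It differed from that rat by −0.34 for miR-99a, −0.31 for miR-193, −0.30 for miR-195, −0.17 for miR-194 and −0.10 for miR-101a. The plot of control choices and this single rat show smaller differences for miR-15b than the 0.43 against MC set 1, whose mean was the lowest of the methylcellulose sets for this miRNA (8.24, against 8.40 to 8.48 in the others).

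The comparison with TAA asks how methapyrilene differs from another liver carcinogen given for the same time and judged against the same control rats, and it uses no control rat. Of 162 miRNAs, 11 were higher and 6 lower in MPy than in TAA, or 10.5% of those tested, with 6.79% higher and 3.7% lower. The largest difference was in miR-34a, which was 9.77, 10.00 and 9.48 in TAA rats and thus 1.79-fold lower in MPy than in TAA (−0.84 ± 0.121 (SE), adjusted p = 2.363e-06) without overlap. miR-7a (−0.16), miR-19a (−0.22), miR-192 (−0.27) and miR-194 (−0.26) were also lower in MPy with groups that did not overlap. The sixth, miR-99a (−0.34, adjusted p = 0.00633), had overlapping groups.

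Higher in MPy than in TAA were miR-16 (0.39, adjusted p = 0.00633), miR-15b (0.29, adjusted p = 0.00352), let-7b (0.25), let-7d (0.21) and let-7i (0.20). miR-143 of mesenchymal cells was also higher (0.25, adjusted p = 0.00251). let-7f (0.08, 95% interval −0.06 to 0.22), miR-195 (−0.05, −0.26 to 0.16) and miR-497 (−0.02, −0.20 to 0.16) were not called and their groups overlapped. miR-101a was not called either (−0.09, −0.20 to 0.02), although all MPy rats lay below all TAA rats. TAA arrays all lay on slide 4 and were scanned on day 1, so no slide or scan day held both groups, and a block can be fitted only through other groups. With slide as a fixed block 1 was higher and 7 lower, and 4 of the 17 were called again in the same direction. With scan day as a block 4 were higher and 6 lower, and 5 of the 17 were called again. Scaling by the miRNAs detected on all arrays moved the share of higher calls from 64.7% to 42.9%. The count of miRNAs higher in MPy fell from 11 to 7 without MPy rat 2, to 6 without MPy rat 3 or TAA rat 3, and to 5 without TAA rat 1.

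Against its own controls, miR-34a (1.96) and let-7f (0.29) were called higher in TAA, and miR-195 (−0.31), miR-193 (−0.37) and miR-99a (−0.23) lower. miR-15b (0.13) and miR-16 (−0.06) were not called there. These values share the control rats of MPy and are given side by side only.

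DMN and CIDB were given for 7 days in corn oil, so each change was taken against its own control set and the difference of the changes was tested. The MPy change differed from the DMN change in 25 miRNAs (15.4%), 11 of them more positive in MPy, and from the CIDB change in 28 (17.3%), 12 of them more positive in MPy. With slide as a fixed block, 2 were called against DMN, 1 of the 25 among them in the same direction, and 9 against CIDB, 8 of the 28 among them. The share of calls more positive in MPy was 44% against DMN, but 20% with scaling by all probes and 63.2% with scaling by detected miRNAs. Against CIDB it was 42.9%, but 4% with scaling by all probes and 11.1% with slide as a fixed block. miR-34a rose by 1.96 in DMN and by 3.44 in CIDB, so the rise of 1.12 in MPy was the smallest of the 4 compounds. In levels, the rats of CIDB reached 11.2 to 11.5, those of DMN 9.65 to 9.96, those of TAA 9.48 to 10.0 and those of MPy 8.80 to 9.07, while CO set 3 was at 7.77 to 8.03. TAA and DMN overlapped, and CIDB and MPy stood apart from them on either side.

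miR-15b and miR-16 rose in DMN (0.49 and 0.29, both called) and were at −0.07 and −0.24 in CIDB without a call. let-7f and let-7d were at −0.07 and −0.10 in DMN and at −0.06 and −0.16 in CIDB, none called. miR-21 rose by 0.70 in CIDB and 0.30 in DMN, and miR-122 fell by 0.33 in CIDB. In MPy they were at 0.01 and −0.01 on the scale used here and at −0.06 and −0.11 with scaling by the miRNAs detected on all arrays. They were at −0.58 and −0.63 with processed signals scaled by all probes and at −0.16 and −0.35 in the value table. miR-122 was called lower under both of these. miR-99a was called lower with all 4 compounds, at −0.57 in MPy, −0.23 in TAA, −0.25 in DMN and −0.27 in CIDB, and the MPy change did not pass the test against that of DMN (difference −0.32 ± 0.122 (SE), adjusted p = 0.0685) or CIDB (−0.30 ± 0.122 (SE), adjusted p = 0.0836).

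**Figure D5:**
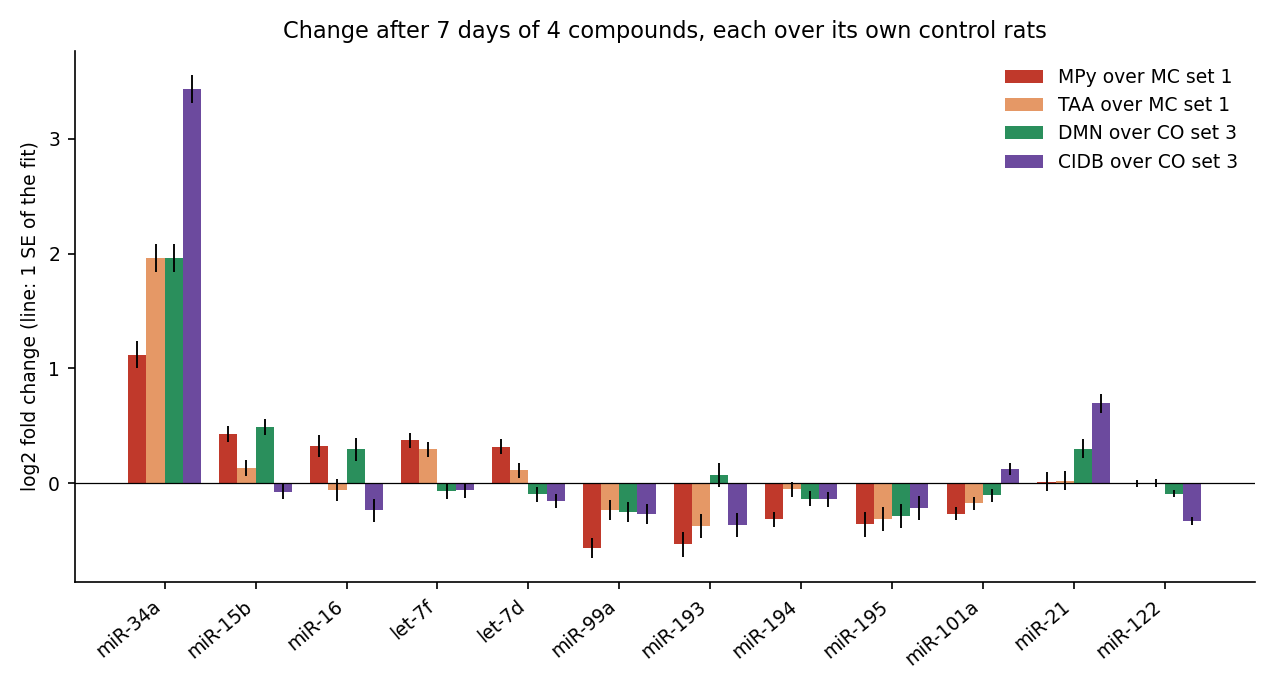
Log2 fold change of 12 miRNAs (bars, with 1 SE of the fit as line) after 7 days of MPy or TAA, each over MC set 1, and of DMN or CIDB, each over CO set 3, with 3 rats per group. miR-34a rises in all 4 and least in MPy, miR-99a and miR-195 lie below 0 in all 4, and miR-21 and miR-122 of MPy are drawn at 0.01 and −0.01 but lie at −0.58 and −0.63 with processed signals scaled by all probes.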

How the data were processed

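Total RNA of 63 rat livers was hybridised to one-colour Agilent rat miRNA arrays, 1 array per rat. The deposited scanner files hold spot intensity values that the authors extracted with Agilent Feature Extraction 10.7.3.1, and the deposited value table holds log2 values that the authors made by RMA, with unknown centring. RNA input is given as 25 ng in the labels and differently in the methods.

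Mean signals without background subtraction were quantile normalized over all arrays after removal of control and outlier-flagged spots. Spots of a probe were averaged, log2 transformed and summarised per miRNA by median polish. Of 350 miRNAs, the 162 detected on at least 1 array entered a limma model (version 3.58.1, run under R 4.3.3) that held a mean for each of the 21 groups, with Benjamini-Hochberg adjustment over the 162 and calls at an adjusted p under 0.05. Unless named otherwise, adjusted p values come from this fit. The fit was tested on simulated data. Sums of a list are linear intensities.

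The members and lists were chosen with earlier results of these data known. Named were the 12 called miRNAs with the largest rise and the 12 with the largest fall without overlap, for TAA 6 and 6, for DMN and CIDB 4 and 4, up to 4 members of each list, and miR-34a/b/c, miR-21, miR-122, miR-200b, miR-29b and miR-93. Further list members, miR-139-3p, miR-140 and the remaining called miRNAs were named after their values were seen.

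Alternatives covered background correction (normexp, offset 50), processed signals scaled by the 75th percentile, the value table, array assignment, filters, slide and scan day, samples fitted, control rats and omission of each rat.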

Additional observations from a re-analysis of the deposited data

Results flagged for a closer look

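The change after MPy, taken against MC set 1, differed by test from that after DMN or CIDB, each taken against CO set 3, in the miRNAs named here. These differences are on the log2 scale, and vehicle, control set and compound cannot be told apart in them. With slide as a fixed block, 1 of the 25 differences from DMN and 8 of the 28 from CIDB were called again in the same direction.

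Against DMN, the MPy change was more positive for let-7f (0.4409), let-7d (0.4164), miR-143 (0.4009) and miR-10a-5p (0.3784). Of these, let-7f and let-7d were called higher in MPy and not called in DMN, whereas miR-143 and miR-10a-5p were called lower in DMN (−0.33 and −0.38) and were at 0.07 and 0.00 in MPy. It was more negative for miR-34a (−0.844), miR-142-3p (−0.6122), miR-193 (−0.6078) and miR-223 (−0.3692). The leukocyte miRNAs miR-142-3p and miR-223 were called higher in DMN (0.76 and 0.40) and were at 0.14 and 0.03 in MPy.

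Against CIDB, the MPy change was more positive for miR-16 (0.5609), miR-15b (0.5012), let-7d (0.4741) and let-7f (0.4364). It was more negative for miR-34a (−2.3168), miR-21 (−0.6832), miR-101b (−0.5122) and miR-101a (−0.3907). miR-101b was called neither in MPy (−0.23) nor in CIDB (0.29).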

How the results depend on the processing

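Against MC set 1 (13 higher and 17 lower as reported), 70 were called higher and 7 lower with processed signals scaled by the 75th percentile of the miRNAs detected on all arrays (90.9% of calls higher, median 0.304), and 7 and 29 with scaling by all probes (19.4% higher, median −0.052). Counts were 11 and 9 with arrays assigned as in the value table, 1 and 1 with slide as a fixed block, 1 and 0 with both together (an alternative chosen after seeing the data, like the control rats of the same scan day and of the same slide), 7 and 6 with only the groups compared in the fit, and 7 and 5 with normalization over these groups only. Leaving out 1 rat gave 13 to 15 higher and 13 to 20 lower.

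Against TAA (11 higher and 6 lower), 6 were higher with scaling by detected miRNAs, 2 higher and 1 lower with scaling by all probes, 7 higher in the value table and with all miRNAs kept, 1 higher with slide as a fixed block, 3 and 3 with slide as a random block, 4 higher with scan day as a block, and 7 and 2 with the replicate block. Same-numbered rats of MPy and TAA deviated from their group means with r = 0.806, 0.273 and −0.0931. For MPy rats 1 and 2 this was the highest r with any TAA rat, whereas for rat 3 another TAA rat reached 0.703. The labels state no pairing, and whether the numbers pair these rats could not be settled. Leaving out 1 rat gave 5 to 13 higher and 4 to 7 lower. No paired analysis was possible for the other comparisons because the control rats carry numbers 4 to 6.

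The DMN count of 25 became 10 with scaling by all probes, 15 in the value table and with slide as a random block, 2 with slide as a fixed block, and 12 with only the groups compared or normalized. The CIDB count of 28 became 9 with slide as a fixed block and 15 with only the groups compared. Leaving out 1 rat gave 20 to 30 and 21 to 32.

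Among named miRNAs called as reported or under the alternative, signs of the log2 fold change turned as follows. With scaling by detected miRNAs, miR-140 was at 0.019. miR-487b was at 0 there, which is no turned sign, since processed signals under 5 units were raised to that floor. With scaling by all probes, let-7f was at −0.1275 and let-7a at −0.2696, while miR-487b and miR-148b-5p were at 0, again no turned sign. miR-99a* was at 0.0227 in the value table, miR-487b at 0.0044 with slide as a fixed block, and miR-338 at 0.0108 with slide and array assignment together. Against CO set 3, miR-16 was at −0.0851, let-7i at −0.0258, miR-30c at 0.0529, miR-199a-3p at −0.1997, miR-212 at −0.0776, miR-409-3p at 0.1234 and miR-487b at 0.0156. Signs also turned for named miRNAs with no call on either side, among them let-7b (−0.254) and miR-21 (−0.579) with scaling by all probes, miR-126 (−0.1) and miR-146a (−0.072) against CO set 3, and miR-409-3p (0.129) with slide as a fixed block. The turns of let-7f, let-7a, let-7b and miR-21 with scaling by all probes were part of the nearly equal downward step between the scalings given above. The cause of the other shifts was not tested. Signal over background limits the dim miRNAs, of which 36 of the 162 tested were well above background on none of the 6 arrays.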
